A study of Mus musculus with 9 samples.

Results

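Phase II conjugation enzymes attach a small polar group to drugs, hormones, bile acids and products of lipid peroxidation, so that the liver can export them. The members described here were all rows of the count table whose symbol belonged to the glutathione S-transferases (Gst), the UDP-glucuronosyltransferases of families 1 to 3 (Ugt) or the sulfotransferases (Sult). By this naming rule there were 54 members among 24008 listed genes, with 21 Gst, 18 Ugt and 15 Sult genes. RNA sequencing was performed on liver pieces of 9 male mice fed a high-fat, high-carbohydrate NASH diet, with 1 library per mouse and 3 mice per group. The control group, labelled WT, is called Flox as in the study. F4MKO mice lacked Irf4 in skeletal muscle, through a Cre driven by a muscle myosin light chain promoter in floxed mice. F4MKO + FSTL1 mice were F4MKO mice whose gastrocnemius was injected with an AAV8 that expressed FSTL1 under the muscle creatine kinase promoter. By the study's methods the other mice received a GFP vector, which the sample labels do not mention. Since the deletion and the vector were directed to muscle, no gene measured in liver served as a check of either.

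Glutathione S-transferases join glutathione to electrophiles, and their classes are named by Greek letters: alpha (Gsta), mu (Gstm), pi (Gstp), theta (Gstt), kappa, omega and zeta (Gstk, Gsto, Gstz). Glucuronosyltransferases transfer glucuronic acid from UDP-glucuronic acid to bilirubin, steroids and phenols, and the Ugt1a enzymes are made from 1 locus in which alternative first exons join shared last exons. Sulfotransferases move sulfate from the donor PAPS to phenols, steroids and bile acids. In liver these genes are known to be induced through the receptors CAR, PXR and AHR and the oxidant sensor NRF2, and several differ between male and female mice under the growth hormone pattern.

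The libraries held between 20656976 and 24322984 counts, and the members together took 0.922% to 1.05% of them. Levels are given as CPM, read counts scaled to a common library size after TMM, and the scaling factor was highest in F4MKO 1 (1.17). A gene was called when the edgeR quasi-likelihood test over 14379 tested genes gave a Benjamini-Hochberg adjusted p under 0.05 together with a fold change above 1.5. In all, 42 members were tested (19 Gst, 15 Ugt and 8 Sult). The 12 untested members were Ugt1a2, Ugt1a7c, Ugt1a10, Gstt4, Gsto2, Sult2a1, Sult2a2, Sult2a5, Sult2b1, Sult3a1, Sult4a1 and Sult6b1, and none of them exceeded 13 counts in any library. Hepatocyte markers such as albumin were abundant in each library (summed CPM 65289 to 96012 over 7 listed genes). Fewer cells of a type and less RNA per cell cannot be told apart in such tissue.

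Averaged over the 9 libraries and divided by exon length, the highest Gst genes were Gstm1 (1478 CPM per kb), Gsta3 (286) and Gstt1 (177), with Gstm3 at 175 close behind. This order did not hold in each group: Gstm3 was second to Gstm1 in F4MKO, at 370.4 CPM per kb against 248 for Gsta3, but had 57.5 CPM per kb in F4MKO + FSTL1. The highest Ugt genes on this scale were Ugt2b5 (471 CPM per kb), Ugt2b36 (322) and Ugt2b1 (171), and the highest Sult genes were Sult2a8 (189.5), Sult1a1 (135) and Sult1d1 (51.7). In F4MKO the first pair stood in the other order, with Sult1a1 at 128 and Sult2a8 at 75.7 CPM per kb. Ugt1a1 had 72.5 CPM per kb of all its exons but 419 CPM per kb of the exon bases that no other gene shares, which would place it second among the Ugt genes, and which of these lengths fits its counts is unknown. Gstm1 alone held 39.7% of the mean Gst CPM in Flox, 45.7% in F4MKO and 33.2% in F4MKO + FSTL1. Sult2a8 held 65.8%, 41.6% and 69.8% of the mean Sult CPM in the same order. The summed Sult genes had 916 to 1076 CPM in Flox, 502 to 699.9 CPM in F4MKO and 1308 to 1463 CPM in F4MKO + FSTL1, with no overlap between groups. The summed Ugt genes had 3305 to 3716 CPM, 2679.9 to 2816 CPM and 3631 to 4156 CPM, and the summed Gst genes 4802 to 6169.7 CPM, 5332 to 6494 CPM and 4249 to 5537 CPM. The Flox and F4MKO + FSTL1 groups overlapped for the Ugt sum, and all groups overlapped for the Gst sum.

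Most members lie in clusters of related genes (GRCm38, GENCODE vM21). On chromosome 9 are Gsta4 (chr9:78182774-78209349), Gsta1 (chr9:78230656-78242684) and Gsta2 (chr9:78331018-78355788). On chromosome 3 are Gstm5 (chr3:107895821-107898686), Gstm3 (chr3:107963696-107969283) and Gstm1 (chr3:108012255-108017973). Ugt2b1 (chr5:86916638-86926530), Ugt2b5 (chr5:87124960-87140318) and Ugt2a3 (chr5:87324972-87337195) are on chromosome 5. Sult2a8 (chr7:14410686-14446769) and Sult5a1 (chr8:123140192-123158315) stand on separate chromosomes.

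Of the alpha genes, which hold 3 of the 6 called lower, Gsta1 and Gsta2 are close copies, so an aligned 60-base coding stretch is shown for each, on GRCm38 (the build named mm10) with GENCODE vM21 transcripts. Capitals mark bases that differ from Gsta1.
Gsta1, chr9:78241563-78241622, + strand: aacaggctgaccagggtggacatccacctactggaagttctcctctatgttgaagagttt
Gm3776, chr9:78268046-78268105, + strand: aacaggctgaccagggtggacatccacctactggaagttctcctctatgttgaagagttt
Gsta2, chr9:78332123-78332182, - strand: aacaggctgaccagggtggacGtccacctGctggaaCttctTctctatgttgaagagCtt
Gm10639, chr9:78304408-78304467, + strand: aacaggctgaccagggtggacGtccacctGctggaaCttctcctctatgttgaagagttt
Gsta4, chr9:78207837-78207896, + strand: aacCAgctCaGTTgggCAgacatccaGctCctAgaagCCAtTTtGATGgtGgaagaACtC
Gsta3, chr1:21262829-21262888, + strand: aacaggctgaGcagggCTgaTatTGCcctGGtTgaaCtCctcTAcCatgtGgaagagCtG
Gm3776 and Gm10639 are not members but neighbours on chromosome 9. Over the whole coding sequence Gsta1 was 99.7% identical to Gm3776, 97.6% to Gsta2, 74.2% to Gsta3 and 66.8% to Gsta4. Of the 100-base windows of the Gsta1 transcript, 81.8% also occurred in another gene and 71.3% in Gm3776, so that the reads of Gsta1 and Gm3776 are assigned with uncertainty. These windows are shorter than the paired reads of the study and can overstate the share of reads that fit several genes. Gsta4 and Gsta3 shared no such window with another gene. A stretch of equal length is shown for the mu genes Gstm3 and Gstm1, with capitals for differences from Gstm3.
Gstm3, chr3:107967587-107967646, - strand: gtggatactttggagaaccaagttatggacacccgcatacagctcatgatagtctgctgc
Gstm1, chr3:108016340-108016399, - strand: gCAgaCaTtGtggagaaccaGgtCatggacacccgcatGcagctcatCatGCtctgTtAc
Gstm3 and Gstm1 were 89.4% identical over their coding sequences, and 13.8% and 7.73% of their windows were shared with other genes.

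To ask whether muscle FSTL1 altered hepatic conjugation genes in F4MKO mice, F4MKO + FSTL1 livers were compared with F4MKO livers. Of the 42 tested members, 11 were called (26.2%), against 14.4% of all tested genes. The 6 called lower were all glutathione S-transferases of the alpha and mu classes, and the 5 called higher were 3 Ugt2 and 2 Sult genes. Over all genes 11.2% were called lower and 3.21% higher. The libraries of the groups did not overlap for 11 members that were higher and 7 that were lower, while 39% of all tested genes did not overlap in either direction. By direction, 18% of all tested genes were wholly higher and 21.1% wholly lower. The median log2 fold change was 0.28 over the members and 0.01 over all tested genes.

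**Figure D1:**
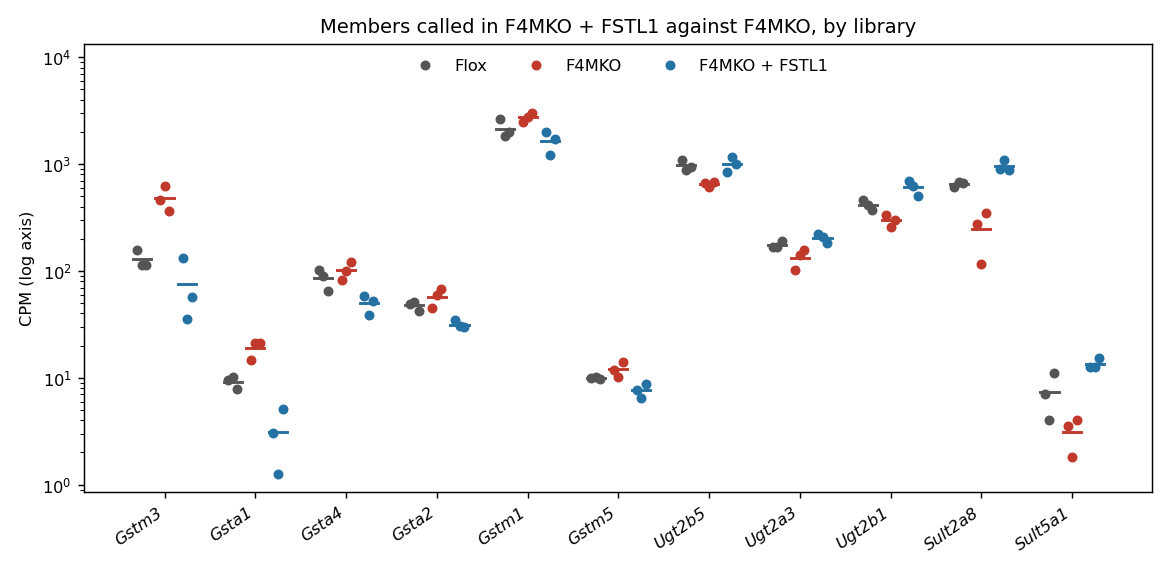
CPM on a log axis of the 11 members called in F4MKO + FSTL1 against F4MKO, with 1 point per library (3 per group) and a bar at the group mean. By group mean, Gstm3 and Gsta1 stand highest in F4MKO and lowest in F4MKO + FSTL1, while Sult2a8 and Sult5a1 show the opposite order of groups.

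Among the mu genes, Gstm3 had 464, 626 and 367 CPM in F4MKO and 133, 35.3 and 57.3 CPM in F4MKO + FSTL1. The groups did not overlap, and Gstm3 fell by 2.69 on the log2 scale (SE 0.41, adjusted p = 0.00194 by edgeR). In Flox livers it measured 157, 113 and 114 CPM. Gstm1, the most abundant member per length by mean CPM per kb of exon, had 2494, 2734 and 3008 CPM in F4MKO and 1983, 1226 and 1704 CPM in F4MKO + FSTL1. It fell by 0.75 on the log2 scale (SE 0.19, adjusted p = 0.0185), and without F4MKO + FSTL1 replicate 2 the difference was no longer called (adjusted p = 0.0758). Gstm5 measured 11.8, 10.2 and 14 CPM against 7.62, 6.49 and 8.77 CPM and fell by 0.66 (SE 0.15, adjusted p = 0.0102), a call lost without F4MKO replicate 3 (fell by 0.53) or F4MKO + FSTL1 replicate 2 (fell by 0.55). Gstm5 overlaps a gene on the opposite strand, 4933431E20Rik, and reads of both could not be told apart without strand. Of the 7 mu genes 3 were called, and Gstm2, Gstm4, Gstm6 and Gstm7 were not. Gstm2 had 121, 122 and 101 CPM in F4MKO and 122, 45.9 and 57.4 CPM in F4MKO + FSTL1, so that its groups overlapped through a single library.

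Among the alpha genes, Gsta1 had 14.6, 21.3 and 21 CPM in F4MKO and 3.04, 1.25 and 5.07 CPM in F4MKO + FSTL1. It fell by 2.61 on the log2 scale (SE 0.34, adjusted p = 0.00137), and the F4MKO + FSTL1 libraries differed by up to 4.05 times among themselves. When its counts were summed with those of the near copy Gm3776, an alternative added after seeing the data, the pair fell by 2.79 (SE 0.35, adjusted p = 0.00117). Gsta4, whose enzyme conjugates 4-hydroxynonenal from lipid peroxidation, had 82.8, 100.5 and 122 CPM against 58.5, 38.6 and 52 CPM, with no overlap, and fell by 1.03 (SE 0.20, adjusted p = 0.00501). Gsta2 had 44.7, 60.1 and 67.1 CPM against 34.7, 30.3 and 29.6 CPM and fell by 0.86 (SE 0.14, adjusted p = 0.00291). Gsta3, the alpha gene with the highest level per length, was not called: its F4MKO libraries had 911, 1120.1 and 1207 CPM and its F4MKO + FSTL1 libraries 1335, 1315 and 1339.6 CPM (log2 fold change 0.30, SE 0.13, adjusted p = 0.133). The summed level of the class therefore overlapped between the groups, with 1053 to 1417 CPM in F4MKO and 1385 to 1431.5 CPM in F4MKO + FSTL1.

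None of the 2 pi, 3 theta and 3 kappa, omega and zeta genes tested was called. Gstz1, the maleylacetoacetate isomerase of tyrosine breakdown, had an adjusted p of 0.0260 in the edgeR test but a log2 fold change of 0.46 (SE 0.13), under the fold threshold. Gstt1, a theta enzyme, had 206, 230 and 271 CPM in F4MKO and 324, 255 and 294 CPM in F4MKO + FSTL1, and its groups overlapped. Gstp1 and Gstp2 are 98.1% identical in coding sequence, and Gstp2 had 0.713, 0.328 and 0.488 CPM in Flox, 0.318, 0.0419 and 0.559 CPM in F4MKO, and 0.0935, 0.0961 and 0.418 CPM in F4MKO + FSTL1, which is a handful of reads.

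**Figure D2:**
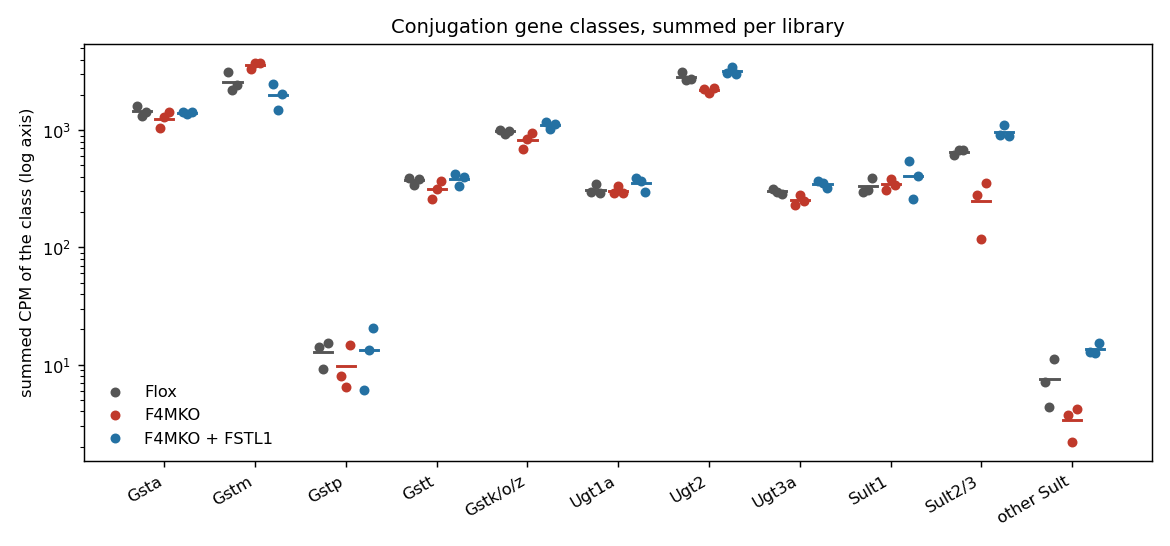
Summed CPM of each class on a log axis, with 1 point per library (3 per group) and a bar at the group mean; sums include members too low to test. The mu class lies between 3320 and 3744 CPM in F4MKO, above the 1492 to 2493 CPM of F4MKO + FSTL1.

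Of the 15 tested glucuronosyltransferases, 3 were called higher, all of them among the 8 Ugt2 genes. Ugt2b1, which conjugates steroids and phenols, had 334, 259 and 299 CPM in F4MKO and 700.2, 624 and 504 CPM in F4MKO + FSTL1. It rose by 1.04 on the log2 scale (SE 0.15, adjusted p = 0.00171), and its groups did not overlap. Ugt2b5, at 471 CPM per kb the most abundant Ugt gene per length, had 664, 612 and 684 CPM against 841, 1155 and 998 CPM (log2 fold change 0.61, SE 0.14, adjusted p = 0.0106). Ugt2a3 had 102, 139.8 and 157 CPM against 219.6, 209 and 185 CPM (log2 fold change 0.62, SE 0.15, adjusted p = 0.0130). Both lay close to the fold threshold. The Ugt2b5 call was lost with upper-quartile scaling (0.55) and without F4MKO replicate 2 (0.56) or F4MKO + FSTL1 replicate 2 (0.50), and the Ugt2a3 call with upper-quartile scaling (0.56) and without F4MKO replicate 1 (0.46) or F4MKO + FSTL1 replicate 1 (0.57). Ugt2b5 is 97% identical to Ugt2b38, and the sum of both gave a log2 fold change of 0.61 (SE 0.14, adjusted p = 0.0115). Ugt2b36 and Ugt3a2, whose family uses sugars other than glucuronic acid, had adjusted p-values of 0.0175 and 0.00687 by edgeR but differed by less than the fold threshold (log2 fold changes 0.42 and 0.48).

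No Ugt1a gene was called, and within-group spread was wide. Ugt1a9 had 21.6, 23.4 and 109 CPM in Flox, 109, 207 and 18.6 CPM in F4MKO, and 17.5, 123.3 and 99.1 CPM in F4MKO + FSTL1. Each group thus held libraries on both sides of a gap, and the ratio of highest to lowest reached 11.1 in F4MKO. Ugt1a1, the bilirubin-conjugating enzyme, had 183, 219 and 114 CPM in Flox, 108, 79.5 and 181 CPM in F4MKO, and 261, 167 and 138 CPM in F4MKO + FSTL1. Ugt1a5 had 8.91, 6.41 and 11.9 CPM in F4MKO against 25.8, 14.6 and 7.99 CPM in F4MKO + FSTL1 (log2 fold change 0.83, SE 0.40, adjusted p = 0.160). The summed Ugt1a genes ran from 289.6 to 391 CPM over the 9 libraries, and their sum was not called in any comparison (log2 fold change 0.21 in F4MKO + FSTL1 against F4MKO, SE 0.13, adjusted p = 0.272). Since 57.2% to 100% of the 100-base windows of these transcripts also belong to another Ugt1a gene, how their reads were divided is uncertain.

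**Figure D3:**
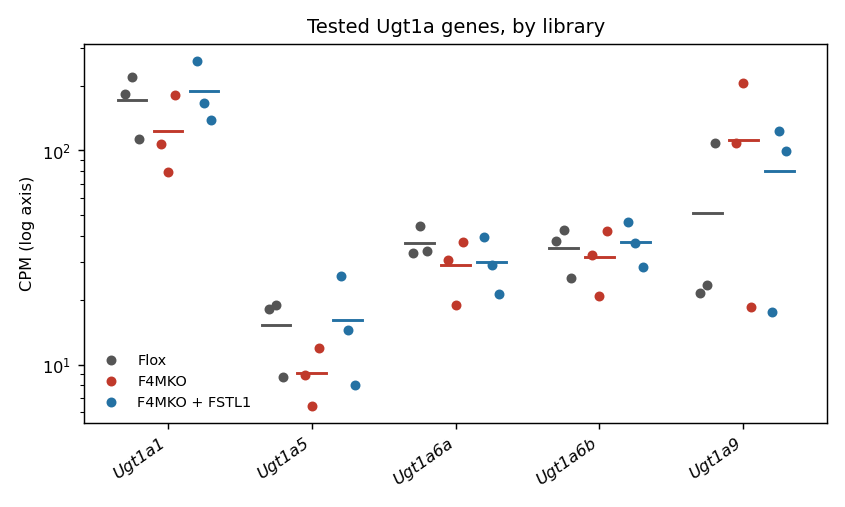
CPM on a log axis of the 5 tested Ugt1a genes, with 1 point per library (3 per group) and a bar at the group mean. Ugt1a9 ranges from 17.5 to 207 CPM, and each group has libraries near 20 and libraries near or above 99 CPM.

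Of the 8 tested sulfotransferases, 2 were called higher. Sult2a8, the bile acid sulfotransferase of mouse liver, had 277, 117 and 352 CPM in F4MKO and 905, 1099 and 888 CPM in F4MKO + FSTL1, with 613, 678 and 672 CPM in Flox. It rose by 1.95 on the log2 scale over F4MKO (SE 0.30, adjusted p = 0.00213). The 3 groups did not overlap each other. Sult5a1 was low, with 3.57, 1.8 and 4.03 CPM in F4MKO, 12.7, 12.6 and 15.2 CPM in F4MKO + FSTL1, and 7, 4.06 and 11.1 CPM in Flox. It rose by 2.10 over F4MKO (SE 0.34, adjusted p = 0.00254). None of the 5 Sult1 genes was called. Sult1a1, a phenol sulfotransferase, had 172, 217 and 189 CPM against 335, 137 and 219 CPM, and Sult1d1, which accepts catecholamines, had 116, 144 and 124 CPM against 160, 96.3 and 150.4 CPM, so that the groups of both genes overlapped. Sult1e1, the oestrogen sulfotransferase, measured at most 0.794 CPM in any library. Sult1b1 and Sult2a7 had log2 fold changes of 0.70 (SE 0.23, adjusted p = 0.0552) and 0.80 (SE 0.33, adjusted p = 0.112).

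**Figure D4:**
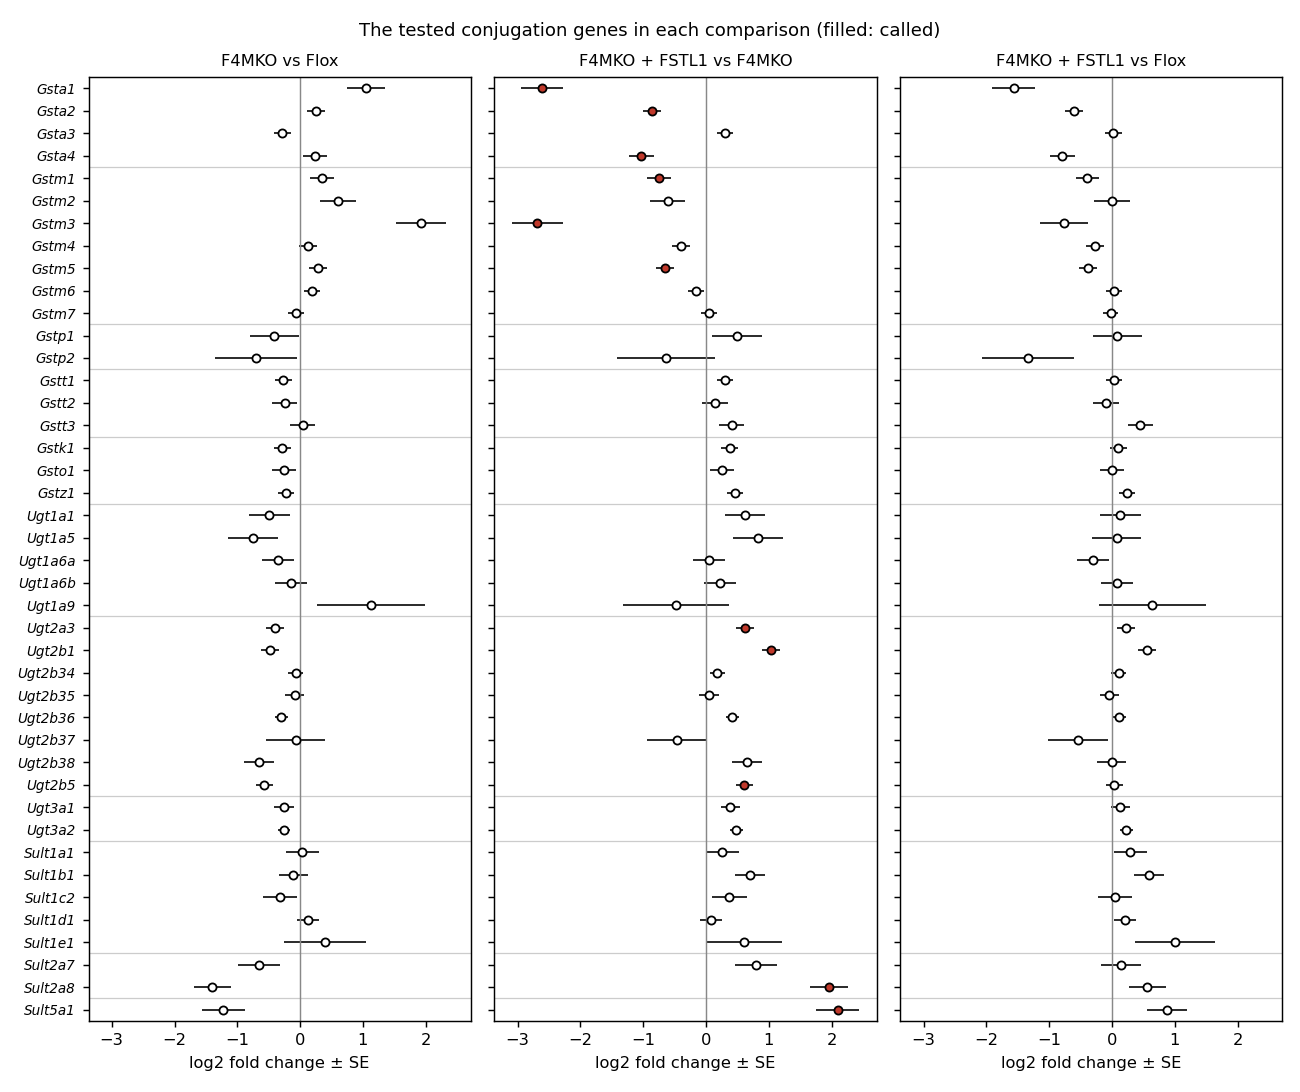
Log2 fold change ± SE of the 42 tested members, ordered by class, in the 3 comparisons; filled points were called. The called genes are 6 of the alpha and mu classes to the left and 3 Ugt2 and 2 Sult genes to the right, in F4MKO + FSTL1 against F4MKO.

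To ask whether muscle Irf4 deletion altered these genes, F4MKO livers were compared with Flox livers, which share the F4MKO libraries with the comparison above. With edgeR none of the 42 members was called, against 0.271% of all tested genes (0.202% higher and 0.0695% lower), and 10 members had an unadjusted p under 0.05, against 16.9% of all tested genes. With DESeq2, 4 were called: Gstm3 and Gsta1 higher, Sult2a8 and Sult5a1 lower. DESeq2 also called more genes than edgeR over all genes, as counted in the closing section. Gstm3 had a log2 fold change of 1.92 (SE 0.39, adjusted p = 0.0610 by edgeR), and all F4MKO libraries lay above the Flox libraries. Gsta1 had 9.5, 10.2 and 7.85 CPM in Flox, all below F4MKO (log2 fold change 1.05, SE 0.31, adjusted p = 0.134). Sult2a8 had a log2 fold change of -1.40 (SE 0.30, adjusted p = 0.0624) and Sult5a1 one of -1.22 (SE 0.34, adjusted p = 0.122), and in both all F4MKO libraries lay below the Flox libraries. The 5 members that lay wholly above Flox were all alpha or mu Gst genes. The 8 members that lay wholly below Flox were 6 Ugt and 2 Sult genes. Among the Ugt genes, Ugt2b5 had a log2 fold change of -0.57 (SE 0.14, adjusted p = 0.0864 by edgeR). These 5 and 8 of 42 members compare with 21.8% of all tested genes with no overlap in either direction (11.7% higher, 10% lower).

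F4MKO + FSTL1 livers were next compared with Flox livers. No member was called by edgeR, against 0.00695% of all tested genes, and 9 members had an unadjusted p under 0.05, against 13.4%. The groups did not overlap for 5 members that were higher, against 7.44% of all tested genes, and 4 that were lower, against 10.7%. DESeq2 called Gsta1, Gsta2 and Gsta4 lower, and its count over all genes in this comparison is not given here. Their log2 fold changes were -1.57 (SE 0.34, adjusted p = 0.0978 by edgeR), -0.60 (SE 0.14, adjusted p = 0.115) and -0.79 (SE 0.20, adjusted p = 0.126), and in each gene all F4MKO + FSTL1 libraries lay below the Flox libraries. Sult1e1, Sult5a1 and Sult2a8 had log2 fold changes of 0.998, 0.88 and 0.56 (SE 0.63, 0.32 and 0.29) with adjusted p-values of 0.562, 0.263 and 0.454 by edgeR. Sult1e1 rested on 1 to 17 counts per library. Ugt2b1 had a log2 fold change of 0.56 (SE 0.15, adjusted p = 0.149 by edgeR), and all its F4MKO + FSTL1 libraries lay above Flox.

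The promoter of each member was next searched for the cores to which known regulators bind: TGACNNNGC for the antioxidant response element of NRF2, GCGTG for the xenobiotic response element of AHR, TTCNNNGAA for STAT factors and the direct repeat 1 element of PPAR and HNF4 (a pair of AGGTCA separated by a single base), on both strands. RefSeq windows from 250 bases before to 50 bases after the start were at hand for 46 members (57 windows, GRCm38.p6). The antioxidant core was in 3 of 57 member windows, against 12.4% of 32851 windows, and the xenobiotic core in 11, against 32.4%. The STAT motif was in 4, against 8.3%, and the direct repeat in none, against 0.0396%. Of the called members with a window, Gsta1, Gsta2, Gstm1 and Gstm5 held a match, and Gstm3, Ugt2b1, Ugt2b5, Ugt2a3, Sult2a8 and Sult5a1 held none. The 250 bases before the start are shown for Gsta1, Gsta2 and Gstm5, with matches in capitals, and for Gstm3, which had the largest fall of the called members and no match.
Gsta1, chr9:78230419-78230668, + strand: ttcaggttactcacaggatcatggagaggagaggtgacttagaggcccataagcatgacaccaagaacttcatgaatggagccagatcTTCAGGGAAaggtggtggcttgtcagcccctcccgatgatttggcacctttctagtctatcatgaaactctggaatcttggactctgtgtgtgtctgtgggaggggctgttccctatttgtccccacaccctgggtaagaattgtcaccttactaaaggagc
Gsta2, chr9:78347146-78347395, - strand: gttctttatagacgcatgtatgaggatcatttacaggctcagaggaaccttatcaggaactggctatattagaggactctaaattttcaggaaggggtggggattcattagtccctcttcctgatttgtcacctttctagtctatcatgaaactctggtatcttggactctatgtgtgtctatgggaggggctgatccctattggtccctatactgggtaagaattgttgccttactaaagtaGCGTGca
Gstm5, chr3:107895604-107895853, + strand: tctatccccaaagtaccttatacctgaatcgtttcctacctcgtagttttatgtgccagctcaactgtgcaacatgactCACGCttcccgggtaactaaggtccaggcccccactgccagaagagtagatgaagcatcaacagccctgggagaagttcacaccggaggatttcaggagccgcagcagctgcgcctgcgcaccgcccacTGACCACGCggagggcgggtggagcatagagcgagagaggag
Gstm3, chr3:107969175-107969424, - strand: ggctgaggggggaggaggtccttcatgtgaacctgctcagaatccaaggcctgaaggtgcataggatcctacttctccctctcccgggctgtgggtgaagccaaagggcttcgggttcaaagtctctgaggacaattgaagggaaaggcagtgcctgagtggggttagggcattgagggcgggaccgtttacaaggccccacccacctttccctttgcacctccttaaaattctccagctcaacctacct
Gsta1 holds a STAT match from base -162 and a xenobiotic core from base -2, which runs past the start and beyond the printed bases. Gsta2 holds a xenobiotic core from base -7. Gstm5 holds a reverse-strand xenobiotic core from base -171 and an antioxidant core from base -42 that overlaps a reverse-strand xenobiotic core. These matches are descriptions of letters, not of binding.

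Other genes of the pathway were counted in F4MKO + FSTL1 against F4MKO. Of all tested genes 14.4% were called in this comparison, 3.21% higher and 11.2% lower, and the counts below stand beside these shares. Among 21 receptors and regulators 3 were called higher: Nr1i3, which encodes CAR (0.85, SE 0.23, adjusted p = 0.0221 by edgeR), Cebpa (0.66) and the growth hormone receptor Ghr (0.63). Nfe2l2, which encodes NRF2, Ahr and the PXR gene Nr1i2 were not called, with log2 fold changes of -0.26, -0.41 and 0.04. Among 19 known targets of these receptors outside the families 8 were called lower, including Cyp2b10 (log2 fold change -3.61), Cyp2c55 (-2.46), Cyp3a11 (-1.24), Srxn1 (-0.68) and Hmox1 (-0.65). None was called higher, and 17 had log2 fold changes below 0 and 2 above. The fall was not uniform: Cyp1a2 had 217, 143 and 193 CPM in F4MKO and 301, 250 and 263 CPM in F4MKO + FSTL1. Gclc overlapped, with 354, 282 and 302 CPM against 262, 369 and 290 CPM. Cyp2b10 had 1.2, 22.6 and 3.51 CPM in F4MKO, with 1 library far above the other two. Of 36 genes for cofactor supply and other conjugation, Inmt, Slc27a5 and Ephx2 were called higher and Mgst3, Hpgds and Gstcd lower. Among 10 transporters Slco1a1 (2.02) and Slc22a7 (1.50) were called higher, and Abcc4 (-0.96) and Abcb1a (-1.65), which export conjugates and drugs, were called lower. Of 9 deconjugating enzymes only Dpep1 was called (-1.07).

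Markers of sex-biased expression and of other cell types moved in the same comparison. Of 11 male-predominant liver genes 6 were called higher, against 3.21% of all tested genes. Of 9 female-predominant genes 4 were called lower, against 11.2%. The summed male-predominant level was 1270 to 3817 CPM in F4MKO and 8517 to 14823 CPM in F4MKO + FSTL1. Cholangiocyte markers summed to 163 to 436 CPM in F4MKO, 36.5 to 54.7 CPM in F4MKO + FSTL1 and 51.3 to 90.7 CPM in Flox. Most of each sum was Spp1, with 143 to 397 CPM in F4MKO and 29.8 to 45.6 CPM in F4MKO + FSTL1. Of the 6 cholangiocyte markers tested 5 were called lower in F4MKO + FSTL1 than in F4MKO. Called lower were 7 of 10 macrophage, 7 of 10 stellate cell and 8 of 8 dividing cell markers, against 11.2% of all tested genes. All markers of these lists had log2 fold changes below 0. Pericentral hepatocyte markers summed to 6002 to 8698 CPM in F4MKO and 13270 to 16134 CPM in F4MKO + FSTL1, with 3 of 8 called higher. Most of each sum was Cyp2e1, with 4445 to 7029 CPM in F4MKO and 11342 to 13510 CPM in F4MKO + FSTL1. Of the 8 pericentral markers 7 had log2 fold changes above 0 and 1 below. The same held for the 8 periportal hepatocyte markers, of which 1 was called higher. Of 10 endothelial markers none was called, with 5 above 0 and 5 below. No marker of these cell type lists was at 0 in all libraries of a group. The part of these shifts in the changes of the conjugation genes was not tested.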

How the data were processed

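Total RNA of liver pieces from 9 mice was sequenced. Per the labels and the study's methods, the authors trimmed reads with Trim Galore 0.6.7, aligned them to mm10 with HISAT2 2.2.1 and counted them per gene with featureCounts 2.0.1. The authors deposited raw counts, whole numbers per gene and library; the annotation, the strand setting and the treatment of reads that fit several genes are not given in the sources used here. Near-identical genes and shared exons can therefore exchange reads.

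Genes were kept by filterByExpr (minimum count 10, minimum total 15), scaled by TMM and tested with the edgeR 4.0.16 quasi-likelihood test in R 4.3.3, with all 9 libraries in one fit (common biological coefficient of variation 0.15). Adjusted p-values are Benjamini-Hochberg over 14379 genes, and a call needed an adjusted p under 0.05 and a fold change above 1.5. DESeq2 1.42.0 was an alternative, beside other scaling factors, no filter, the 6 libraries compared, a replicate block, calls on the adjusted p alone, glmTreat with 1.5 as its minimum fold and leaving out each library. The fit was tested on simulated data. Levels per length used GENCODE vM21 exon lengths, found for all 54 members. Each library came from 1 mouse, and groups followed the sample labels. Members named with values were those called in any comparison, the 5 largest rises and falls in each comparison and the 3 highest per length in each family. Other members with printed values (Gstz1, Ugt3a2, Ugt1a1 and the near copy Ugt2b38 in a sum with Ugt2b5) were added after their values were seen. The members and lists were chosen with earlier results of these data known.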

Additional observations from a re-analysis of the deposited data

How the results depend on the processing

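For F4MKO + FSTL1 against F4MKO, 11 members were called, and 5 (Gstm3, Gsta1, Ugt2b1, Sult2a8 and Sult5a1) when glmTreat required a fold beyond 1.5. Leaving out 1 library at a time gave 9 to 12. Those 5, Gsta2 and Gsta4 were called in each of the other settings run. For F4MKO against Flox, 0 members were called, but 4 with DESeq2, 5 without the low-count filter, 1 with only the 6 libraries compared and 0 to 1 when each library was left out (Sult2a8 without F4MKO replicate 2 or 3). For F4MKO + FSTL1 against Flox, 0 were called, but 3 with DESeq2, 3 without the filter and 0 to 1 when each library was left out (Gsta1 without F4MKO + FSTL1 replicate 3). The cause was not tested. Over all genes, F4MKO against Flox went from 39 calls to 338 with DESeq2, 478 without the filter and 0 when any Flox library or F4MKO replicate 1 was left out, and F4MKO + FSTL1 against F4MKO from 2070 to 620 with glmTreat. The sign turned for Sult1e1 in F4MKO against Flox without Flox replicate 3 (log2 fold change -0.10) and for Ugt1a9 when summed with the other Ugt1a genes (-0.032). In the fit with a replicate block, 2 members (Gstm3 and Sult5a1) were called in F4MKO against Flox. Counts over all genes are given here for some settings only. Member counts in the other settings cannot be read as particular to the members. Deviations of same-numbered libraries correlated at 0.08, 0.04 and 0.17 in F4MKO against Flox, and differently numbered ones at -0.14 to 0.05. In F4MKO + FSTL1 against F4MKO the values were 0.11, 0.09 and 0.30, and -0.19 to 0.08. In F4MKO + FSTL1 against Flox they were 0.0008, -0.10 and 0.21, and -0.15 to 0.17. The labels do not pair the mice and these values cannot decide it, so the numbers were not taken as pairs. With 3 libraries per group, genes of few counts such as Gstp2 and Sult1e1 are limited by depth.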
